A study of Mus musculus with 33 samples.

Results

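A set of 10 genes of the cell skeleton were followed over the days after partial hepatectomy, namely the α-tubulins Tuba1b and Tuba1c, the β-tubulins Tubb2a, Tubb2b, Tubb4b, Tubb5 and Tubb6, the cytoplasmic actins Actb and Actg1, and stathmin (Stmn1). Members were taken by symbol, and a gene was measured where a probe set carried its symbol alone in the platform annotation, with the probe set of highest mean over all arrays standing for it. Of the 10 listed genes 8 were measured in this way, out of 18193 genes on the array. Every probe set for Tuba1b and Tuba1c lists 2 genes, so no value is given for them. Tubb2b lay between 2.61 and 3.13 on the log2 scale on all 33 arrays, below the level of 5 on at least 3 arrays that a gene needed to be tested, which left 7 members among 13642 genes tested.

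Mouse livers were collected at 11 times after removal of 70% of the liver, each time with 3 biological replicates per the labels, and the RNA of each liver was hybridized to an Affymetrix mouse array. They were 0 days (d), then steps of 0.25 d up to 1 d, followed by 1.5 d, 2 d, 3 d, 4 d, 7 d and 14 d. The samples of 0.25 d, 0.5 d, 0.75 d and 1.5 d are numbered in a block apart from those of the other times. What sets the blocks apart is not stated in the labels used here. A difference between them cannot be told apart from time where a comparison crosses the blocks. The 0 d livers carry the same operation in their label, and the labels used here give no strain, sex, age or sham operation. The hepatocyte product albumin (Alb) was at 14.60 to 14.80 on every array, although a description field speaks of fat, and the adipocyte hormone Adipoq lay between 2.76 and 7.07. Array medians lay between 5.32 and 5.38, and an array correlated with the others of its time at r of 0.970 to 0.994. All values are log2 signals of a probe set, so levels are compared between times and not between genes. Because whole liver was measured, fewer cells of a type and less RNA per cell cannot be told apart.

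Microtubules are hollow filaments built from dimers of an α- and a β-tubulin, and they form the spindle that separates chromosomes in mitosis. Stathmin binds free tubulin dimers and promotes the shortening of microtubules until it is phosphorylated at mitosis, and it is abundant in dividing cells. Actins Actb and Actg1 form the filaments under the plasma membrane and the contractile ring of dividing cells, and transcription of actin genes is known to respond to serum response factor (SRF), which binds the CArG box. In hepatocytes, actin also lines the bile canaliculi, and microtubules carry secreted plasma proteins to the cell surface.

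Promoters of 4 of the 7 tested members were at hand from RefSeq on the mouse build GRCm38.p6. They are shown as sequences, and a link between them and the time courses was not tested. Each window holds the 250 bases before the annotated start of the gene, 5′ to 3′ on the strand of the gene. Capitals mark matches, on either strand, to the CCAAT box (CCAAT), the cell cycle genes homology region (TTTGAA), the CArG box, the cyclic AMP response element (TGACGTCA) and the TATA motif (TATAAA).
Tubb2a, chr13:34078009-34078258, minus strand: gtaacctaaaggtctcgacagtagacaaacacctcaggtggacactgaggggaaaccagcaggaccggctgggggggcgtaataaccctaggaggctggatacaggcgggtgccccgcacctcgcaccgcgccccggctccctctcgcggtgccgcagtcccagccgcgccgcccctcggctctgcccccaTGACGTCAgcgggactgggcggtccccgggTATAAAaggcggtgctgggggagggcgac
Tubb4b, chr2:25224703-25224952, minus strand: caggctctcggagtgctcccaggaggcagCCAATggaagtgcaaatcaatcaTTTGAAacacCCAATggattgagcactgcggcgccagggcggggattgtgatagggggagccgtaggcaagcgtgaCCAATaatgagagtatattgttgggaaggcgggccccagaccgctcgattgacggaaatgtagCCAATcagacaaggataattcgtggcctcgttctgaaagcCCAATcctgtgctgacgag
Tubb5, chr17:35838302-35838551, minus strand: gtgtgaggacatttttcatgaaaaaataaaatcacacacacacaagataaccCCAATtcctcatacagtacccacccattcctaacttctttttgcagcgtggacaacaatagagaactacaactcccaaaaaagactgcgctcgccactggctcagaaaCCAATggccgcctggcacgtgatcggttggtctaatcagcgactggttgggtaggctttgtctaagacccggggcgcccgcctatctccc
Actg1, chr11:120348496-120348745, minus strand: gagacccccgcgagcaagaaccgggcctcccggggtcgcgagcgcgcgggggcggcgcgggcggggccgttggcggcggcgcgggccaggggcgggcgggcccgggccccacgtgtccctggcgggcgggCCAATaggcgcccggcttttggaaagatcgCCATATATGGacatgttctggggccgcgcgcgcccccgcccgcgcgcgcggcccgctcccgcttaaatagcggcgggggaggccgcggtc
The Tubb4b window holds 5 matches to CCAAT and 1 to TTTGAA, and the Tubb5 window holds 2 to CCAAT. Actg1 has 1 CCAAT and a CArG box that lies 90 to 81 bases before the start. Tubb2a has neither, but a TGACGTCA 59 to 52 bases and a TATAAA 29 to 24 bases before the start. Over all 32851 windows of the same length, 33.8% hold CCAAT, 16.0% TTTGAA, 1.5% a CArG box, 1.5% TGACGTCA and 12.4% TATAAA. The GC box (GGGCGG, in 32.7% of windows) was also searched and is not in capitals. It matched 6 times in Actg1, where 2 of the matches overlap, 2 times in Tubb2a, 1 time in Tubb4b and 0 times in Tubb5. The matches are descriptions of these letters, and the motifs were chosen after the time courses and sequences had been seen.

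Each of the 7 tested members left its 0 d level at some time (limma's moderated F-test, adjusted p from 9.1e-12 for Stmn1 to 5.0e-05 for Tubb2a), as did 69.4% of all genes tested. The 4 tubulins and both actins tested were above their 0 d level at 0.5 d and at 2 d, with Tubb6 at 0.75 d and 1 d and Tubb4b at 1.5 d not past the threshold in between. Stathmin first fell and then rose, with its highest mean at 3 d. At 7 d and 14 d none of the 7 differed from 0 d by the test, where 0.183% and 0.0147% of all genes did. Differences below are log2 differences from 0 d with the standard error (SE) of the fit, 3 arrays per time, and a gene is said to rise or fall where the Benjamini-Hochberg adjusted p over all genes was under 0.05. All 10 comparisons share the 0 d arrays, so they are not independent of each other.

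At 0.25 d 3 of the 7 were higher and 1 was lower, against 17.2% and 28.8% of all genes (2340 and 3925 genes, and 3072 and 3147 genes with quantile normalization). At 0.5 d 6 were higher and 1 was lower, against 15.8% and 19.4% of all genes. The counts were 5 higher and 1 lower at 0.75 d (9.84% and 12.7% of all genes) and 5 higher and 0 lower at 1 d (8.16% and 9.55%). Later, 6 were higher at 1.5 d (8.33% of all genes higher and 11.7% lower) and at 3 d (10.2% and 10.9%), with 0 lower. At 2 d all 7 were higher, where 22.5% of all genes were called in either direction and 11.6% were lower. Without 2 d replicate 2, which stood apart for several members, 6 were higher at 2 d. At 4 d Stmn1 alone was still past the threshold, with 1.88% of all genes higher and 0.975% lower. For 4 members every 4 d array lay above every 0 d array, among them Tubb6 (mean 7.78, against 6.57 at 0 d). The median difference of the 7 members was 0.18 at 0.25 d, 1.48 at 0.5 d, 1.66 at 2 d, 1.23 at 3 d and 0.14 at 4 d, while the median over all genes lay between -0.05 and 0.00 at every time.

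**Figure D1:**
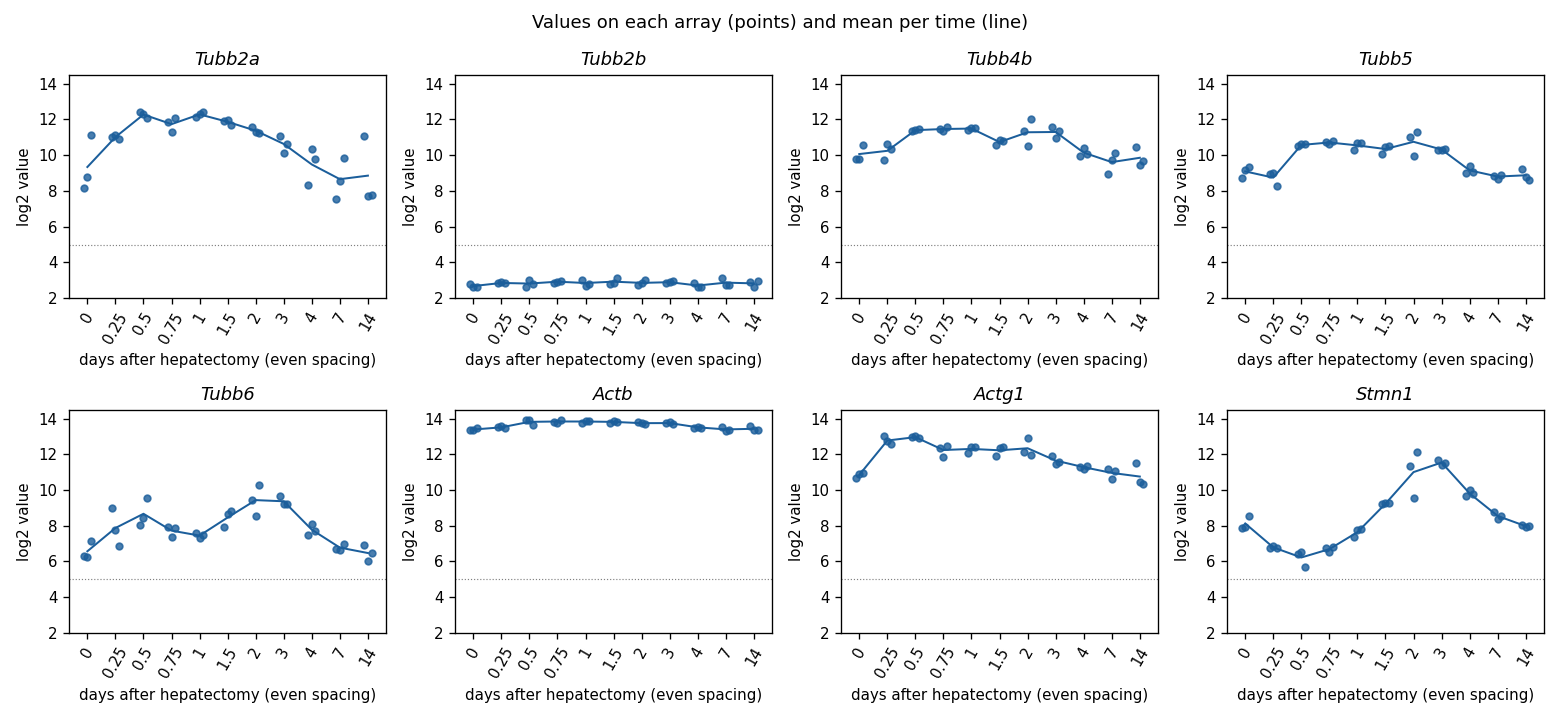
Log2 value of each array (points, 3 per time) and the mean per time (line) against days after hepatectomy, drawn with even spacing, for the 8 measured members; the dotted line is the level of 5 used in the filter. Stmn1 dips to 5.71 at 0.5 d before its peak, Actb stays between 13.28 and 13.92, Tubb2b lies at the floor, and Tubb2a scatters widely at 0 d, 7 d and 14 d.

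Among the β-tubulins, Tubb2a had the widest swing. Its arrays read 8.15, 8.75 and 11.12 at 0 d, 10.999, 11.15 and 10.89 at 0.25 d, 12.40, 12.33 and 12.09 at 0.5 d, and 11.84, 11.28 and 12.10 at 0.75 d. They read 12.13, 12.30 and 12.43 at 1 d, 11.92, 11.98 and 11.70 at 1.5 d, 11.58, 11.31 and 11.23 at 2 d, and 11.10, 10.14 and 10.65 at 3 d. Later they read 8.32, 10.35 and 9.77 at 4 d, 7.57, 8.56 and 9.84 at 7 d, and 11.08, 7.70 and 7.80 at 14 d. Every array from 0.5 d to 2 d lay above all 0 d arrays, the lowest of them, 11.23 at 2 d, only just above 0 d replicate 3. Tubb2a rose by 2.93 at 0.5 d (SE 0.69, adjusted p = 0.0015) and by 2.94 at 1 d (SE 0.69, adjusted p = 0.0036), and 1.29 at 3 d missed the threshold (adjusted p = 0.19). Within a time it spread by an SD of 0.13 at 0.25 d and 0.15 at 1 d, and of 1.57 at 0 d, 1.14 at 7 d and 1.92 at 14 d. The rise of 1.67 at 0.25 d (adjusted p = 0.049) was lost without any single array of either time except 0 d replicate 3 (adjusted p from 0.0790 to 0.247). Without 0 d replicate 3 the difference was 2.56 at 0.25 d (adjusted p = 0.0040) and 2.18 at 3 d (adjusted p = 0.024). The calls at 0.75 d and 1.5 d were lost without 0 d replicate 1 (adjusted p = 0.092 and 0.080) or 0 d replicate 2 (0.059 and 0.052), and that at 0.75 d also without 0.75 d replicate 3 (0.052). The call at 2 d was lost without 0 d replicate 1 or 2 (adjusted p = 0.19 and 0.13) and without any single 2 d array (0.062 to 0.097). In the order of its means, 1 d and 0.5 d came first with ranges that overlapped each other and not that of 1.5 d, the next, and 3 d, 4 d, 0 d, 14 d and 7 d came last with overlapping ranges. A second, dimmer probe set for Tubb2a followed it at r = 0.95 over the 33 arrays and was higher at 6 times.

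Tubb4b and Tubb5, which are made in most tissues, rose between 0.25 d and 0.5 d. Tubb5 read 8.72, 9.20 and 9.37 at 0 d, 8.97, 9.003 and 8.26 at 0.25 d, 10.49, 10.61 and 10.62 at 0.5 d, and 10.71, 10.63 and 10.80 at 0.75 d. It read 10.27, 10.67 and 10.70 at 1 d, 10.04, 10.48 and 10.51 at 1.5 d, 11.03, 9.94 and 11.29 at 2 d, and 10.31, 10.31 and 10.34 at 3 d. At 4 d it read 9.01, 9.38 and 9.06, at 7 d 8.83, 8.68 and 8.91, and at 14 d 9.22, 8.81 and 8.61. Every array from 0.5 d to 3 d thus lay above every array of the other times. Tubb5 rose by 1.48 at 0.5 d (SE 0.24, adjusted p = 3.0e-05), by 1.62 at 0.75 d and by 1.66 at 2 d, and it was at -0.35 (adjusted p = 0.25) at 0.25 d. Its step from 0.25 d to 0.5 d was 1.83 (adjusted p = 8.4e-06). From 3 d to 4 d it fell by 1.17 (adjusted p = 0.0050). A second probe set for Tubb5 correlated at r = 0.91 and was higher at 6 times and lower at 1.

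Tubb4b read 9.80, 9.80 and 10.59 at 0 d, 9.71, 10.65 and 10.37 at 0.25 d, 11.33, 11.41 and 11.47 at 0.5 d, and 11.48, 11.37 and 11.55 at 0.75 d. It read 11.39, 11.55 and 11.53 at 1 d, 10.57, 10.86 and 10.78 at 1.5 d, 11.34, 10.51 and 12.00 at 2 d, and 11.59, 10.97 and 11.34 at 3 d. At 4 d it read 9.97, 10.41 and 10.05, at 7 d 8.97, 9.73 and 10.14, and at 14 d 10.43, 9.47 and 9.66. From 0.5 d to 1 d the 9 arrays lay in a narrow band above all 0 d arrays, whereas those of 1.5 d and 2 d reached down into the 0 d range. Tubb4b rose by 1.34 at 0.5 d, 1.40 at 0.75 d and 1.43 at 1 d (SE 0.31, adjusted p from 0.0014 to 0.0019). It rose by 1.22 at 2 d and 1.23 at 3 d, and 0.67 at 1.5 d missed the threshold (adjusted p = 0.13). The call at 2 d was lost without 2 d replicate 3 (0.86, adjusted p = 0.056). From 3 d to 4 d it fell by 1.16 (adjusted p = 0.025), a step of -0.35 with the mean of its probe sets (adjusted p = 0.088). Of its 5 other probe sets, 2 passed the filter and were called at 0 times, with r = 0.50 and 0.43 to the set used, so the rise of Tubb4b rests on its brightest set.

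Tubb6 was high at 0.5 d and again at 2 d and 3 d. It read 6.32, 6.24 and 7.16 at 0 d, 8.97, 7.78 and 6.87 at 0.25 d, 8.02, 8.45 and 9.55 at 0.5 d, and 7.94, 7.35 and 7.89 at 0.75 d. It read 7.57, 7.30 and 7.47 at 1 d, 7.93, 8.64 and 8.82 at 1.5 d, 9.46, 8.54 and 10.31 at 2 d, and 9.65, 9.23 and 9.22 at 3 d. At 4 d it read 7.49, 8.12 and 7.73, at 7 d 6.68, 6.65 and 6.99, and at 14 d 6.91, 6.02 and 6.49. At 0.75 d and 1 d its arrays were closer to the 0 d arrays, though above all of them. Tubb6 rose by 2.10 at 0.5 d (SE 0.43, adjusted p = 0.00040), by 2.86 at 2 d (adjusted p = 2.3e-05) and by 2.80 at 3 d, while 1.16 at 0.75 d (adjusted p = 0.054) and 0.88 at 1 d (adjusted p = 0.17) missed the threshold. None of the steps from 0.5 d to 0.75 d (-0.94), 1 d to 1.5 d (1.01) and 1.5 d to 2 d (0.97) was past the threshold (adjusted p = 0.23, 0.28 and 0.35). With array weights, which count the more variable arrays less, the steps from 1 d to 1.5 d and from 1.5 d to 2 d were called (1.13, adjusted p = 0.0040, and 0.99, adjusted p = 0.029). Without 0 d replicate 3 the rise at 0.75 d was 1.45 and passed (adjusted p = 0.032). Its rise of 1.30 at 0.25 d was 0.75 without 0.25 d replicate 1 (adjusted p = 0.17), and the call was also lost without 0 d replicate 1 or 2 (adjusted p = 0.057 and 0.062). A second, dim probe set for Tubb6, with a mean of 5.77, went the other way (r = -0.52) and was lower at 5 times.

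Both cytoplasmic actins were up by 0.5 d, Actg1 already at 0.25 d. Actg1 read 10.68, 10.90 and 10.95 at 0 d, 13.02, 12.73 and 12.55 at 0.25 d, 12.94, 13.002 and 12.93 at 0.5 d, and 12.37, 11.87 and 12.48 at 0.75 d. It read 12.07, 12.41 and 12.42 at 1 d, 11.90, 12.36 and 12.41 at 1.5 d, 12.12, 12.91 and 11.98 at 2 d, and 11.91, 11.44 and 11.59 at 3 d. At 4 d it read 11.28, 11.20 and 11.36, at 7 d 11.20, 10.62 and 11.06, and at 14 d 11.50, 10.43 and 10.32. Every array from 0.25 d to 4 d lay above every 0 d array, with the highest means at 0.5 d and 0.25 d, whose ranges overlapped. Actg1 rose by 1.92 at 0.25 d (SE 0.25, adjusted p = 1.1e-06), by 2.11 at 0.5 d (adjusted p = 3.0e-07) and by 1.38 to 1.49 from 0.75 d to 2 d. The rise of 0.80 at 3 d (adjusted p = 0.021) was lost without 0 d replicate 1 (0.72, adjusted p = 0.084) or 3 d replicate 1 (0.67, adjusted p = 0.11).

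Actb, which is often used as a reference gene, moved least in size of the 7 at 0.5 d and 2 d and with little spread. It read 13.36, 13.33 and 13.46 at 0 d, 13.51, 13.56 and 13.45 at 0.25 d, 13.90, 13.92 and 13.63 at 0.5 d, and 13.82, 13.76 and 13.92 at 0.75 d. It read 13.75, 13.87 and 13.89 at 1 d, 13.76, 13.86 and 13.83 at 1.5 d, 13.82, 13.73 and 13.67 at 2 d, and 13.75, 13.79 and 13.71 at 3 d. At 4 d it read 13.48, 13.54 and 13.50, at 7 d 13.50, 13.28 and 13.38, and at 14 d 13.59, 13.34 and 13.34. All arrays from 0.5 d to 3 d lay above all 0 d arrays. Actb rose by 0.36 to 0.45 at each of these 6 times (SE 0.08, adjusted p from 0.00017 to 0.0022), a fold of 1.28 to 1.37, and 0.12 at 0.25 d was not past the threshold (adjusted p = 0.22). The 3′ control probe set for β-actin correlated at r = 0.99 with it and reached a difference of 0.55 at 0.75 d. The middle and 5′ control sets, at r = 0.98 and 0.95, reached 0.68 and 0.85 at 1 d, so the size of the rise depended on the probe set. Another, dimmer probe set for Actb correlated at r = 0.80 and was higher at 2 times, with its greatest difference of 0.36 at 1 d. Between the 3′ and the 5′ control sets the signal differed by 0.46 to 0.62 at 0.5 d and 0.75 to 0.88 at 2 d, against 0.74 to 0.94 at 0 d. This measure of RNA quality moved with some of the times at which the members were high, and it is taken from the transcript of Actb, itself a member. The same measure for Gapdh was -0.30 to -0.14 at 0.5 d and -0.20 to -0.09 at 2 d, against -0.17 to -0.04 at 0 d. The part of RNA quality in the results was not tested.

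**Figure D2:**
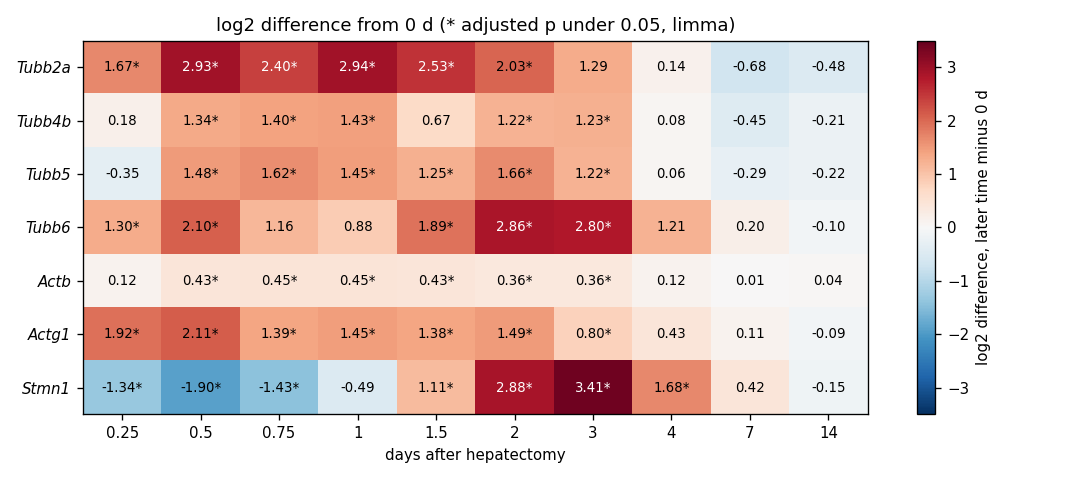
Log2 difference from 0 d for the 7 tested members (rows) at the 10 later times (columns), coloured from lower (blue) to higher (red), with a star where the limma adjusted p was under 0.05. Tubulins and actins are red from 0.5 d to 3 d, Stmn1 has stars on blue from 0.25 d to 0.75 d (-1.90 at 0.5 d) and on red from 1.5 d to 4 d (3.41 at 3 d), and 7 d and 14 d hold no star.

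Stmn1 moved in both directions. Its arrays read 7.88, 7.95 and 8.55 at 0 d, 6.74, 6.89 and 6.74 at 0.25 d, 6.42, 6.54 and 5.71 at 0.5 d, and 6.73, 6.53 and 6.82 at 0.75 d. They read 7.37, 7.74 and 7.82 at 1 d, 9.20, 9.26 and 9.25 at 1.5 d, 11.36, 9.54 and 12.11 at 2 d, and 11.70, 11.41 and 11.50 at 3 d. At 4 d they read 9.65, 9.98 and 9.80, at 7 d 8.74, 8.35 and 8.54, and at 14 d 8.02, 7.90 and 8.01. All arrays up to 1 d lay below all 0 d arrays, and all from 1.5 d to 4 d lay above them. Stmn1 fell by 1.34 at 0.25 d (SE 0.35, adjusted p = 0.0028), fell by 1.90 at 0.5 d (adjusted p = 0.00011) and fell by 1.43 at 0.75 d. It rose by 1.11 at 1.5 d (adjusted p = 0.024), by 2.88 at 2 d (adjusted p = 1.1e-06), by 3.41 at 3 d (adjusted p = 3.1e-07), a fold of 10.6, and by 1.68 at 4 d (adjusted p = 0.0089). The call at 1.5 d was lost without any single array of either time except 0 d replicate 3 (adjusted p from 0.053 to 0.093), and that at 4 d without 0 d replicate 1 (adjusted p = 0.054). At 2 d replicate 2 lay well below the other arrays, and without it the rise at 2 d was 3.61. The steps called were 1.59 from 1 d to 1.5 d (adjusted p = 0.011), 1.77 from 1.5 d to 2 d (adjusted p = 0.0099) and -1.73 from 3 d to 4 d (adjusted p = 0.0039). The step from 1.5 d to 2 d was lost without 1.5 d replicate 1 or without 2 d replicate 1 or 3 (adjusted p = 0.059, 0.072 and 0.11). In the order of means 3 d and 2 d overlapped at the top, 2 d also reached down to 4 d, and at the bottom the range of 0.75 d overlapped those of both 0.25 d and 0.5 d. By F statistic Stmn1 ranked 35 of the 13642 genes tested, and its second probe set followed it at r = 0.95 and was higher at 2 times and lower at 0, so the early fall was called on 1 of its 2 probe sets (lowest difference of the second set -0.87).

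The steps between neighbouring times describe when the members changed. Steps into or out of the block of 0.25 d, 0.5 d, 0.75 d and 1.5 d cannot be told apart from a block difference. These include the steps from 1 d to 1.5 d and from 1.5 d to 2 d. From 0.25 d to 0.5 d 3 members rose, Tubb4b, Tubb5 and Actb, where 21.2% of all genes were called. Without 0.25 d replicate 1 Tubb4b lost that call and Tubb6 gained it (adjusted p = 0.070 and 0.032), and Actb lost it without 0.5 d replicate 2 (adjusted p = 0.061). Stmn1 was the member called from 1 d to 1.5 d and from 1.5 d to 2 d (2.10% and 1.60% of all genes). With 1 d replicate 1 left out its step from 1 d to 1.5 d missed the threshold (adjusted p = 0.072), as it did when 1.5 d replicate 2 was left out (adjusted p = 0.055). From 3 d to 4 d Tubb4b, Tubb5, Tubb6 and Stmn1 fell, with 6.25% of all genes called. The falls of Tubb4b and Tubb6 were lost without 3 d replicate 1 (adjusted p = 0.12 for both), 4 d replicate 1 (0.081 and 0.089) or 4 d replicate 3 (0.080 and 0.075). Tubb4b also lost its call without 3 d replicate 3 (adjusted p = 0.061), and Tubb6 without 3 d replicate 2 or 4 d replicate 2 (0.071 and 0.051). Without 2 d replicate 2 Tubb5 had called steps of 0.81 from 1.5 d to 2 d (adjusted p = 0.021) and -0.84 from 2 d to 3 d (adjusted p = 0.041). No member was called from 0.5 d to 0.75 d, 0.75 d to 1 d, 2 d to 3 d, 4 d to 7 d or 7 d to 14 d with all arrays, where 2.29%, 1.17%, 0.418%, 0% and 0% of all genes were called. With array weights Stmn1 was called from 0.75 d to 1 d (1.03, adjusted p = 0.00091) and from 4 d to 7 d (-1.34, adjusted p = 0.012), and Tubb5 from 2 d to 3 d (-0.64, adjusted p = 0.021).

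Comparing phases separated the members further, although 0.25 d and 0.5 d are numbered in a block apart from 2 d and 3 d. Between these times, phase cannot be told apart from block. Between the mean of 2 d and 3 d, when mouse hepatocytes divide, and the mean of 0.25 d and 0.5 d, 3 members were higher and 1 was lower, against 28.6% and 26.5% of all genes. Stmn1 differed by 4.76 (SE 0.24, adjusted p = 7.8e-14), Tubb6 by 1.13 (SE 0.30, adjusted p = 0.0030) and Tubb5 by 0.87 (SE 0.17, adjusted p = 0.00013). The early mean pools 0.25 d and 0.5 d, between which Tubb5 rose from a mean of 8.75 to 10.57. Its mean over 2 d and 3 d, 10.54, was thus no higher than at 0.5 d. That of Tubb4b, 11.29, was likewise below its 0.5 d mean of 11.40. Actg1 fell by 0.87 (SE 0.17, adjusted p = 0.00018). Tubb4b at 0.47 (adjusted p = 0.071), Actb at 0.08 (adjusted p = 0.22) and Tubb2a at -0.64 (adjusted p = 0.27) were not past the threshold. Tubb4b passed it without 0.25 d replicate 2 (0.57, adjusted p = 0.038) or 2 d replicate 2 (0.66, adjusted p = 0.0093). Between the mean of 7 d and 14 d and that of 2 d and 3 d all 7 fell, against 19.2% of all genes lower and 18.4% higher. The falls ran from -3.01 for Stmn1 and -2.78 for Tubb6 through -2.24 for Tubb2a, -1.69 for Tubb5, -1.56 for Tubb4b and -1.14 for Actg1 to -0.33 for Actb.

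The change between the early and the dividing phase was compared between members with a two-sided exact permutation test over the 6 arrays of each phase, which allows no p below 0.0022 over its 924 regroupings, with p-values adjusted over the 21 pairs. This test was chosen after the values had been seen, so its p-values describe these arrays and are no independent support. The 6 arrays of a phase come from different times, so the p-values mix differences between times with the spread between livers. Of the 21 pairs 13 differed. Stmn1 differed from each of the other 6 by 3.63 to 5.63 (adjusted p = 0.0065 each). Actg1 differed from Tubb4b, Tubb5, Tubb6, Actb and Stmn1 (adjusted p from 0.0065 to 0.028) and not past the threshold from Tubb2a (adjusted p = 0.47). Tubb2a differed from Tubb4b, Tubb5 and Tubb6 (adjusted p = 0.019, 0.0065 and 0.019). Among Tubb4b, Tubb5 and Tubb6 no pair passed (adjusted p from 0.21 to 0.52), which does not show that they changed alike.

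**Figure D3:**
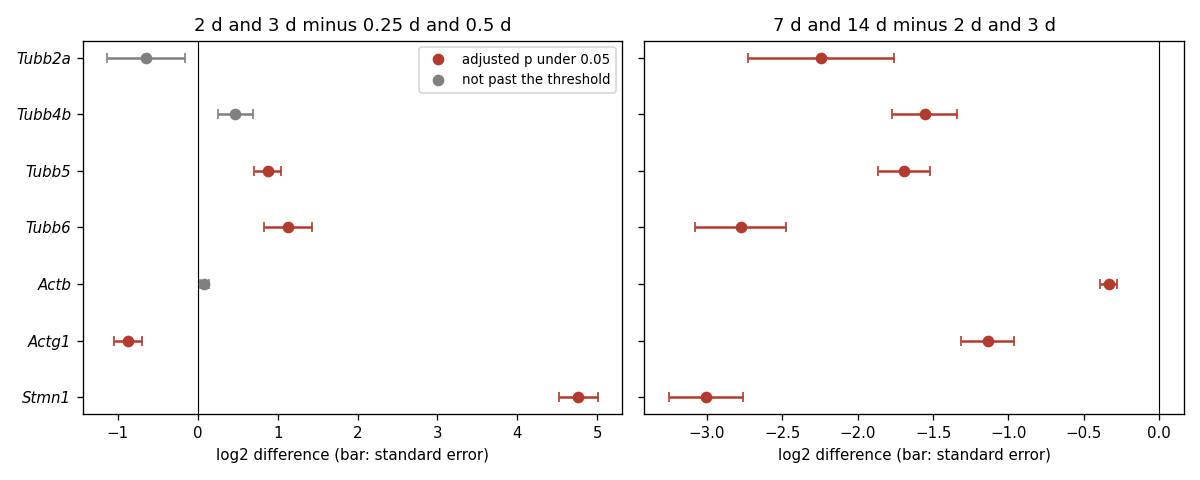
Log2 difference between phases for each tested member (points) with its standard error (bars), 2 d and 3 d minus 0.25 d and 0.5 d on the left and 7 d and 14 d minus 2 d and 3 d on the right; red points have a limma adjusted p under 0.05. On the left Stmn1 stands at 4.76 and Actg1 at -0.87, and on the right all 7 points lie below 0.

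Members resembled each other to unequal degrees over the 11 time means, a description in which all points share the same arrays. Tubb5 correlated with Tubb4b at r = 0.95 and with Actb at r = 0.95, and Tubb4b with Actb at r = 0.94. Tubb2a was nearest to Actb (r = 0.92) and Actg1 (r = 0.91). Stmn1 correlated with the other 6 at r between -0.30 and 0.49, the highest being with Tubb6.

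Genes with the most similar pattern over the 33 arrays were also taken from all genes tested, as a description in which the points share arrays and times. Nearest to Stmn1 were the chromosomal passenger and survivin gene Birc5 (r = 0.99), the proliferation marker Mki67 (r = 0.98) and the mitotic kinase Cdk1 (r = 0.98). On 2 d replicate 2, where Stmn1 was low, Birc5 read 6.78, Mki67 7.21 and Cdk1 8.23, against 9.22 and 10.07, 10.03 and 10.57, and 10.46 and 11.16 on the other 2 d arrays. That array also had the fewest genes at a level of 5 or more, 12468, and its part in the spread was not tested. Nearest to Tubb2a were Lrfn3, which encodes a synaptic adhesion molecule (r = 0.92), the circadian transcription factor Clock (r = 0.91) and Gfer, which encodes the sulfhydryl oxidase known as augmenter of liver regeneration (r = 0.91). Clock read 8.47 on 0 d replicate 3 and 7.81 and 7.04 on the other 0 d arrays, and 8.23 on 14 d replicate 1 and 6.66 and 7.27 on the other 14 d arrays, so it was high on the same arrays as Tubb2a.

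Tubb6 was nearest to the histone variant H2ax (r = 0.92), the deubiquitinase Usp1 (r = 0.90) and Larp7 (r = 0.89), which binds the 7SK RNA. Tubb5 was nearest to Jpt2, Pbdc1 and Eloc (r = 0.94, 0.94 and 0.92), Tubb4b to Nubp1, Pbdc1 and Ube2k (r = 0.92, 0.87 and 0.87). The chaperonin subunit Cct5, part of the complex that folds actin and tubulin, was nearest to Actb (r = 0.92). Mrpl52 and Rps26 came next for Actb (r = 0.91 and 0.90). Actg1 was nearest to thrombomodulin Thbd, the cytidine deaminase Cda and the translation initiation factor subunit Eif2b4 (r = 0.93 each), and Thbd rose by 3.41 at 0.25 d.

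**Figure D4:**
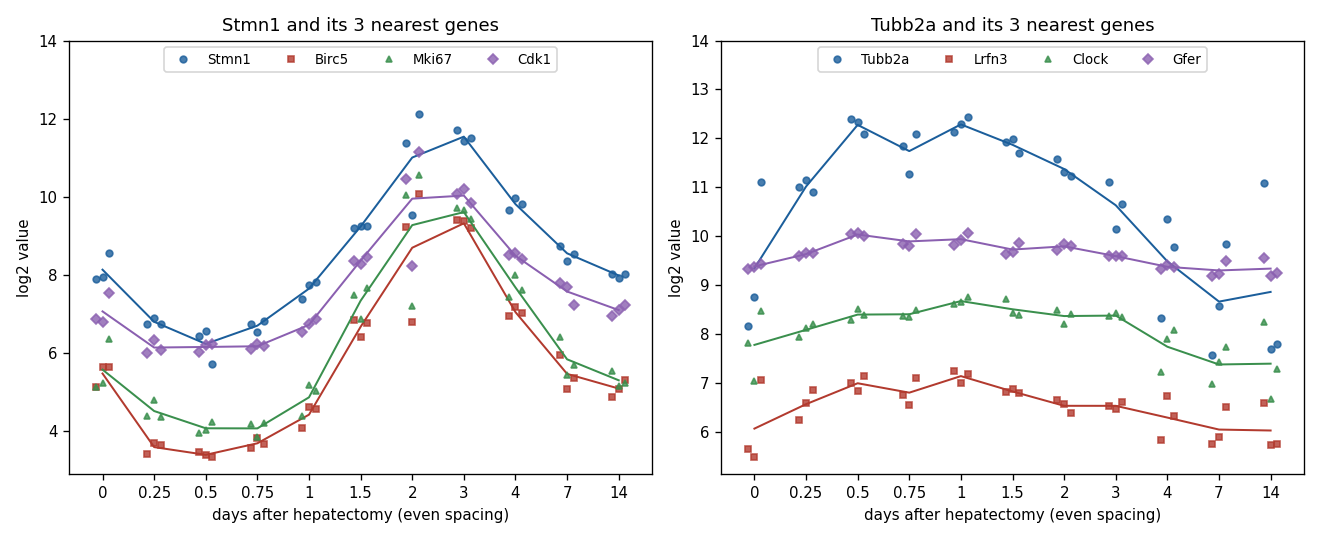
Log2 values by array (points, 3 per time) and time means (lines) against days after hepatectomy, drawn with even spacing, for Stmn1 and its 3 nearest genes on the left and Tubb2a and its 3 nearest genes on the right. Stmn1, Birc5, Mki67 and Cdk1 share a low array at 2 d, and Tubb2a and Clock share a high array at 0 d (11.12 and 8.47) and at 14 d (11.08 and 8.23).

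Other genes of the same pathways were read from lists, and the shares over all genes at the times named were 17.2% higher and 28.8% lower at 0.25 d, 15.8% and 19.4% at 0.5 d, 1494 and 1580 of the 13642 genes at 2 d, and 10.2% and 10.9% at 3 d. Of 8 other tubulin genes tested, 0 were higher at 0.5 d and 3 at 2 d, with a median difference of 0.26 at 2 d. The α-tubulin Tuba1a rose by 1.03 at 1.5 d and Tuba8 by 0.88 at 2 d, while Tuba4a fell by 0.77 at 0.25 d and was at 0.68 (not past the threshold) at 1 d. The γ-tubulin Tubg1, which nucleates microtubules, fell by 0.66 at 0.25 d and rose by 0.62 at 2 d. Of 21 genes of the chaperonin, prefoldin and tubulin cofactors, 2 were higher and 6 lower at 0.25 d, 10 higher and 2 lower at 0.5 d, and 7 higher and 1 lower at 2 d, and the share lower at 0.25 d was close to that of all genes. The tubulin cofactor Tbcb rose by 1.00 at 0.75 d, the chaperonin subunit Cct3 by 0.60 at 0.75 d, and the prefoldin subunits Vbp1 and Pfdn1 by 1.01 and 0.61 at 3 d.

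Among 13 genes of tubulin modification and autoregulation 9 fell and 0 rose at 0.25 d, where 28.8% of all genes fell. The tubulin acetylase Atat1 fell by 0.73, and Svbp, the partner of the tubulin carboxypeptidases, fell by 0.73. The polyglutamylase genes Ttll1 and Tpgs2 fell with them (-0.84 and -0.74). Of 24 microtubule-binding proteins 3 were higher and 3 lower at 0.5 d, 9 higher and 1 lower at 2 d and 7 higher and 2 lower at 3 d. The largest differences were those of spindle genes, with Nusap1 at 3.32, Prc1 at 2.82, Ckap2 at 2.74 and the kinesin Kif18a at 1.77 at 3 d. Kif18a had a 0 d mean of 3.41, below the level of 5 used in the filter. Cycling cell markers, 10 tested, had 0 higher and 4 lower at 0.5 d and 10 higher at both 2 d and 3 d. Their median difference was -1.05 at 0.5 d, where Stmn1 was at -1.90, and 3.03 at 3 d, where Stmn1 was at 3.41. At 0.5 d the markers Birc5 and Mki67 had means of 3.38 and 4.06, below the filter level. Cyclin Ccnb2 rose by 4.21 and Mki67 by 4.04 at 3 d, and the replication helicase subunit Mcm5 by 3.93 at 2 d.

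Around the actins, 21 genes of monomer binding, Arp2/3 and filament turnover had 1 higher and 7 lower at 0.25 d, the 7 a share near that of all genes, and 9 higher and 0 lower at 3 d. Profilin Pfn2 and the monomer-binding thymosin Tmsb10 were at -1.09 and -1.04 at 0.25 d, both past the threshold, the severing protein gelsolin (Gsn) fell by 1.69 at 1.5 d, and the monomer-binding twinfilin Twf2 rose by 0.79 at 3 d. Of 26 crosslinking, tropomyosin and myosin genes 11 were higher and 2 lower at 3 d. Anillin (Anln) and the formin Diaph3, which act in the contractile ring, rose by 3.26 at 3 d and 1.89 at 2 d, from 0 d means of 4.53 and 3.99, below the filter level. The tropomyosin Tpm4 rose by 1.15 at 0.25 d, when Tpm1 was at -0.12 (not past the threshold), and at 1 d they rose by 0.97 and 1.23. Of 11 genes of SRF, its coactivators and its targets 4 were higher at 0.25 d, among them Ccn2 by 2.01 and Egr1 by 2.58, and 5 at 2 d, among them Egr1 by 3.43 and Fos by 2.68. Of 6 muscle actin and smooth muscle genes Acta1 alone was called, with its greatest rise of 0.55 at 0.75 d. Keratins of hepatocytes rose, Krt18 by 1.47 and Krt8 by 1.15 at 2 d, in a list where 3 of 7 were higher at that time. Vimentin (Vim) at 1.17 at 3 d and Krt7, a keratin of bile duct cells, at 0.71 at 1.5 d were not past the threshold (adjusted p = 0.078 and 0.053).

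Markers of other cell types moved over the same times. Of 3 erythroid markers tested 2 were lower at every time from 0.25 d to 3 d, when 9.55% (1 d) to 28.8% (0.25 d) of all genes were lower, with a summed level of 8.41 to 8.75 at 0.5 d and 8.92 to 9.34 at 3 d against 10.04 to 10.39 at 0 d, while Hba-a1 stayed near the floor (3.31 to 3.75). Of 6 neutrophil and monocyte markers 5 were higher at 0.25 d, when 17.2% of all genes were higher (8.88 to 9.31 against 7.69 to 7.98 at 0 d). Of 4 adipocyte markers 2 were higher at 0.25 d as well (10.67 to 11.04 against 7.89 to 9.12 at 0 d). Of 8 Kupffer cell and macrophage markers 1 was higher and 4 were lower at 0.5 d, when 15.8% and 19.4% of all genes were (10.49 to 11.34 against 11.48 to 12.00 at 0 d). At 3 d 5 of these 8 were higher and 0 lower, when 10.2% of all genes were higher (12.59 to 12.96). The hepatocyte list summed to between 16.34 and 16.53 at every time. At 0.25 d 1 of 6 hepatocyte markers was higher and 2 were lower, when 17.2% and 28.8% of all genes were. At that time 1 of 10 stellate markers was higher and 3 were lower. Of 8 endothelial markers 1 was higher and 2 were lower, and of 5 bile duct markers 2 were higher and 0 lower. None of these lists had more called at a later time, and the lymphocyte and mesothelial lists had 0 called. The part of these cell types in the members' changes was not tested.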

How the data were processed

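The 33 livers, 3 at each of 11 times, gave 5 µg of total RNA each for labelling, per the labels' protocols. The log2 values were deposited as made by the authors, who used RMA by the submitters' processing notes. Its version is not given in the sources used here. RMA scales the arrays to each other, which reduces a shift that most genes share, and the deposited array medians still lay between 5.32 and 5.38.

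Of 45101 probe sets 34945 had a single symbol. Controls were left out, and the filter asked for 5 or more on at least 3 arrays. The fit, in R 4.3.3 with lmFit and eBayes of limma 3.58.1, held a mean for each time and used every array. Tests are two-sided, with Benjamini-Hochberg adjustment per comparison. P-values of the fit rest on the spread between the livers of a time, and the number of arrays limits the precision. Those of the exact test also take in differences between the times pooled in a phase. Exact tests and motif searches were run in Python 3.11.15 with scipy 1.17.1, and plots were drawn with matplotlib 3.10.9. The steps were tested on simulated data. The summed level of a marker list is the log2 of its summed linear signals.

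All members are named, along with up to 4 genes per pathway list that passed the F-test with the largest difference from 0 d, and the 3 genes most correlated with each member. Members and lists were chosen with earlier results of these data known. Probe sets marked as shared between transcripts stand for Tubb2a, Actg1 and Stmn1, so near-identical family members may add to their signal. The alternatives tried were other filters, probe set means, the β-actin control set, other scalings, an intensity trend, array weights, the replicate number as a block, fewer arrays, a joint adjustment and each array left out.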

Additional observations from a re-analysis of the deposited data

How the results depend on the processing

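No call turned its direction under any alternative. The count of members past the threshold at 0.25 d, 4 as reported, was 2 with array weights and 2 with only the arrays of the compared times. At 4 d the count, 1 as reported, was 0 with probe sets averaged per gene and 2 with array weights, which added Tubb6 (1.29, adjusted p = 0.032). With each array left out in turn, the count ran from 2 to 4 at 0.25 d and from 0 to 1 at 4 d. It was 2 at 0.25 d without 0 d replicate 1, 0 d replicate 2 or 0.25 d replicate 1, and 0 at 4 d without 0 d replicate 1. At the other times the counts stayed within 1.5 times those reported, and all 7 members passed the F-test under each alternative run for it. Of the single calls, Tubb2a at 0.25 d was lost under most alternatives (adjusted p from 0.0535 with a shift to a common median to 0.0986 with only the compared arrays). Tubb6 at 0.25 d was 0.37 with the mean of its probe sets (adjusted p = 0.16), Stmn1 at 1.5 d and 4 d was 0.81 and 1.21 with that mean (adjusted p = 0.11 and 0.063), and the causes were not tested. With only the compared arrays Tubb2a and Tubb4b at 2 d had adjusted p = 0.091 and 0.077. Tubb6 at 0.75 d passed with a filter at 7, quantile normalization, array weights or only the compared arrays (adjusted p from 0.0058 to 0.047). Array weights added further calls, Tubb4b at 1.5 d (0.74, adjusted p = 0.025), the steps of Tubb4b from 1 d to 1.5 d (-0.74), Tubb5 from 1.5 d to 2 d (0.56) and Actb from 3 d to 4 d (-0.23), and Tubb4b between the early and the dividing phase (adjusted p from 0.012 to 0.040). Tubb6 at 1 d passed with only the compared arrays (adjusted p = 0.046). Between those phases Actb passed with the mean of its probe sets (0.15, adjusted p = 0.031) and with quantile normalization (0.14, adjusted p = 0.048). Over all genes, quantile normalization moved the split of calls from 0.25 d to 0.5 d (1555 higher and 1019 lower, 2182 and 716 as reported) and from 0.75 d to 1 d (65 and 116, 81 and 79 as reported), where a shift to a common median gave 77 and 49.

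The replicate numbers did not pair the samples: deviations from the time means of arrays with the same number correlated at a mean r of 0.02, from -0.35 to 0.39. With the replicate number as a block the count at 0.25 d was 3, because Tubb2a (1.67) had adjusted p = 0.0548, and no other member's call against 0 d changed. Signal over background limits what can be said of Tubb2b and of the dim probe sets of Tubb4b and Tubb6, and 3 arrays per time limit the precision of Tubb2a most, whose SD reached 1.92.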
